A study of Homo sapiens with 2 samples.

Results

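Hedgehog proteins are secreted signals that carry a lipid, and the 9 genes described here cover their release from the sending cell and their reading in the receiving cell: DISP1, DISP2, PTCH1, HHIP, SMO, SUFU, GLI1, GLI2 and GLI3. They were taken by gene name from a human whole genome array that holds 30484 gene names, where 13 probes carry those names. DISP2 was the reason for the choice of this pathway, because its probe was at least 2-fold higher in the miR-204 RNA on each of the 2 arrays. Its ratio is therefore given as a description, and no test is read as support for it. The other 8 genes were added for their place in the pathway.

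The cells were HEK-293, a line made from human embryonic kidney and grown in medium with serum. The miR-204 group had been transfected with a miR-204 mimic, a synthetic stand-in for the microRNA, and the control group with a scrambled oligonucleotide. The labels give 75 nM and 48 h, and both cultures were transfected, with no untransfected culture among the samples. RNA of the 2 groups was hybridized to the same spots of 2-colour Agilent arrays. On the first array the control RNA carried Cy3 and the miR-204 RNA Cy5, and the dye-swap array had them the other way round. Since no source names any further transfection, both arrays together were treated as 1 replicate, and there is no measure of the spread between cultures. Errors given below are those of a spot within an array, or the SD over the 2 arrays, and neither covers that spread.

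Of the labelled line's 7 markers, VIM, KRT8, KRT18, NEFL, NEFM and EYA1 each had a probe that stood well above background whatever the channel, and PAX2 had none in any channel. The markers of other cell types PTPRC, CD3E, ALB and PECAM1 carried no such signal in any of the 4 channels. "Well above background" is the flag that the scanner software sets for a channel of a spot. Between 25284 and 29024 of 43376 spots carried it per channel. A probe was counted when either RNA carried the flag on both arrays, which left 25270 probes, 23159 of them with the flag in all 4 channels.

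A cell that makes Hedgehog needs a Dispatched protein to let the lipid-bearing ligand go. On the receiving cell the ligand binds Patched 1, the product of PTCH1, which in the absence of ligand keeps Smoothened (SMO) inactive. Ligand binding frees Smoothened to act at the primary cilium, where SUFU then loses its hold on the GLI transcription factors. GLI1 is chiefly an activator, GLI3 chiefly a repressor after it has been clipped, and GLI2 can act as either. PTCH1, HHIP and GLI1 are themselves target genes of the pathway, so their transcripts are in common use as a readout of Hedgehog signalling, and the kidney uses the pathway during its development.

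The microRNA under study has 2 mature arms, and the labels do not say which arm the mimic carries. Both are shown so that the seed, the part of a microRNA that pairs with its targets, can be read. The sequences are those of RefSeq, written 5′ to 3′ with the seed, bases 2 to 8, in capitals.
hsa-miR-204-5p: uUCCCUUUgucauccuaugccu
hsa-miR-204-3p: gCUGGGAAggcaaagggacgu
In GRCh38.p14 the first lies on the minus strand of chromosome 9 from 70810031 to 70810052 and the second from 70809993 to 70810013. Matches to these seeds in the transcripts of the 9 genes were not analysed here.

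Of the 13 probes, 10 were counted, for 8 of the 9 genes, and 9 of them carried the flag in all 4 channels, for 7 genes. The 3 probes not counted were the only probe of PTCH1, 1 of 2 probes of HHIP and 1 of 3 probes of SUFU. Each of the 13 probes was spotted once on each array. The probe positions below are those of the array files, on hg18. What part of each transcript the probes lie in was not analysed here.

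**Figure D1:**
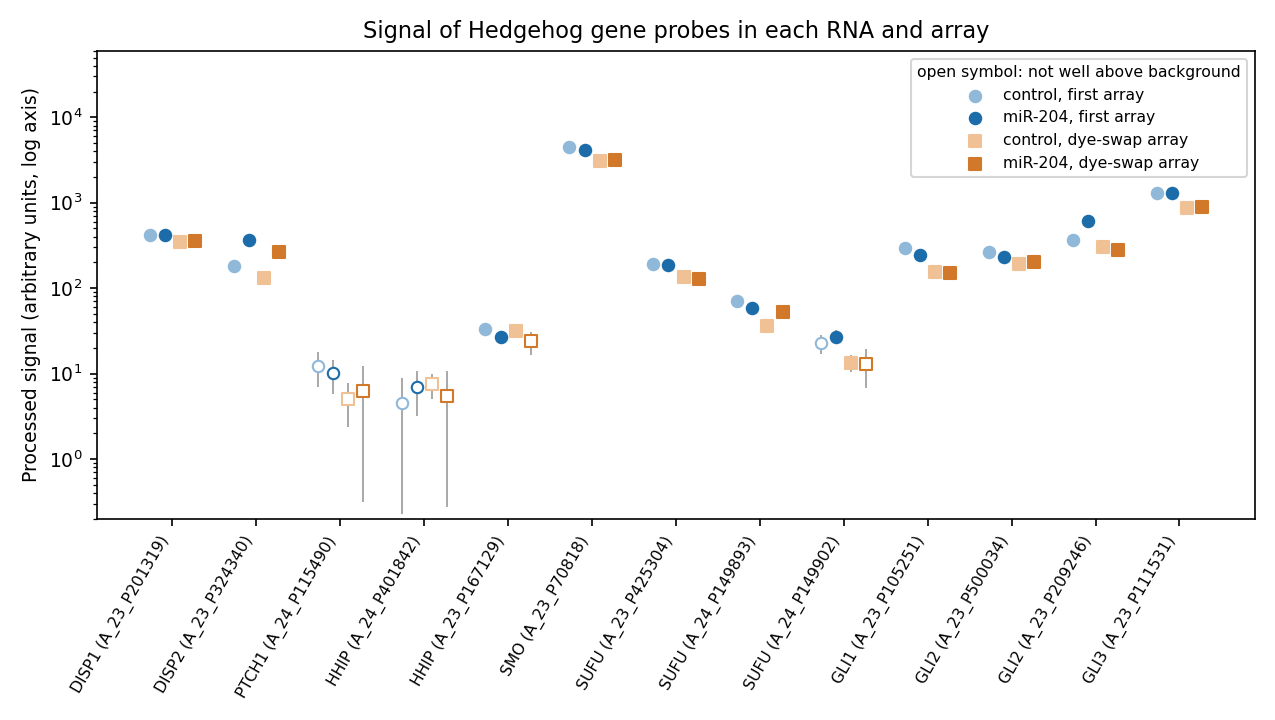
Processed signal (arbitrary units, log axis) of the 13 probes of the 9 genes in the control and miR-204 RNA on the first array (circles) and the dye-swap array (squares). Bars are the software's signal error, cut at the lower end where the error is nearly as large as the signal, and open symbols mark channels not well above background. DISP2 is the only probe whose miR-204 signal lies about 2-fold above its control signal on both arrays, and all 4 channels of PTCH1 lie at 12.3 or below. Levels of different probes are not comparable.

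DISP2 encodes a member of the Dispatched family, related to the DISP1 protein that releases Hedgehog. Its only probe, A_23_P324340, lies on chromosome 15 from 38450473 to 38450532. On the first array it gave a processed signal of 179 ± 18.4 (software error) for control and 367 ± 36.8 for miR-204. With the dyes swapped it gave 132 ± 13.4 for control and 266 ± 27.1 for miR-204. The miR-204 signal was the higher of the 2 on both arrays, and within each array the intervals given by the errors did not overlap. The probe was chosen for a ratio of at least 2-fold on each array. With errors of this size, the direction and the gap follow from that choice, and nothing is read from them. The RNA was a bulk extract, so more cells with DISP2 transcript and more transcript per cell cannot be told apart.

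After quantile normalization of the 4 channels, the miR-204 over control ratio of DISP2, on the log2 scale, came to 1.02 for the first array and 1.01 for the dye-swap array. The software gives an error of 0.23 on the log2 scale for each. The mean was 1.02 with an SD over the 2 arrays of 0.00999, which is 2.02-fold. The arrays thus differed by 0.014, where the median difference over the probes with the flag in all 4 channels was 0.31, and 2.55% of those probes differed by as little as DISP2 or less. That closeness is narrower than the error of either array alone. It also depended on the normalization. When the 2 columns of ratios, in place of the 4 channels, were quantile normalized, the first array gave 1.15 and the dye-swap array 0.64. With normexp background correction and loess within each array they gave 0.73 and 0.77.

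A probe was called when the mean of its ratios reached 2-fold and their signs agreed. By this rule 1 of the 10 counted probes of the 9 genes was called higher, DISP2, where 0.123% of all counted probes were called higher, and none was called lower, where 0.518% of all counted probes were. The DISP2 ratio was used to choose the pathway, so nothing is read from the first of these counts. DISP2 ranked 31st of 25270 counted probes by its mean, and 17th of the 23159 with the flag in all 4 channels. Its ranks on the single arrays were lower, 128 for the first array and 48 for the dye-swap array. It was past 2-fold on each array together with 3 other probes of those 23159, which is 0.0173% of them. Among all 25270 counted probes, 13 were past 2-fold higher on each array. DISP2 was chosen by this same ratio, so nothing is read from its ranks or from these counts.

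The DISP2 mean lay close to the threshold. Among probes with the flag in all 4 channels, the nearest ones just inside it were THC2648227 at 1.001 and KIAA1683 at 1.011, and the nearest just outside were BX110856 at 0.998 and ENST00000382378 at 0.995. Repeated spots give a measure of the error within an array. For probes spotted 10 times and within 2-fold of the DISP2 signal, the SD of the log2 ratio had a median of 0.087 on the first array (25 probes, highest 0.149) and 0.077 on the dye-swap array (36 probes, highest 0.233). DISP2 exceeded a log2 ratio of 1 by less than these SDs on both arrays.

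The 2 dyes read DISP2 differently before the software's dye normalization. After the software's background subtraction alone, its signal on the first array was 143 for control and 333 for miR-204, a log2 ratio of 1.22. On the dye-swap array the same step gave 233 for control and 193 for miR-204, a log2 ratio of -0.27, so at that step the sign was opposite to that of the first array. The whole dye-swap array was shifted, and its median log2 ratio at this step was -1.29, against 0.25 on the first array.

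The software's steps from there to the processed signal, detrending and dye normalization, moved DISP2 by 1.28 on the dye-swap array and by -0.19 on the first array. Over all probes with the flag in all 4 channels, the median shift was 1.29 on the dye-swap array and -0.23 on the first array. The other counted probes of the 9 genes with the flag in all 4 channels moved by 1.22 to 1.37 and by -0.26 to -0.14. Set against the array median at the background-subtracted step, DISP2 stood 0.97 above it on the first array, and 1.03 above it on the dye-swap array. Set against probes of like signal, it stood 0.998 above their median on the first array (3478 probes) and 1.01 above it on the dye-swap array (3468 probes). DISP2 was chosen by its processed ratio and moved about as far as the median. Its distance at the earlier step follows from that choice, and nothing is read from it.

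**Figure D2:**
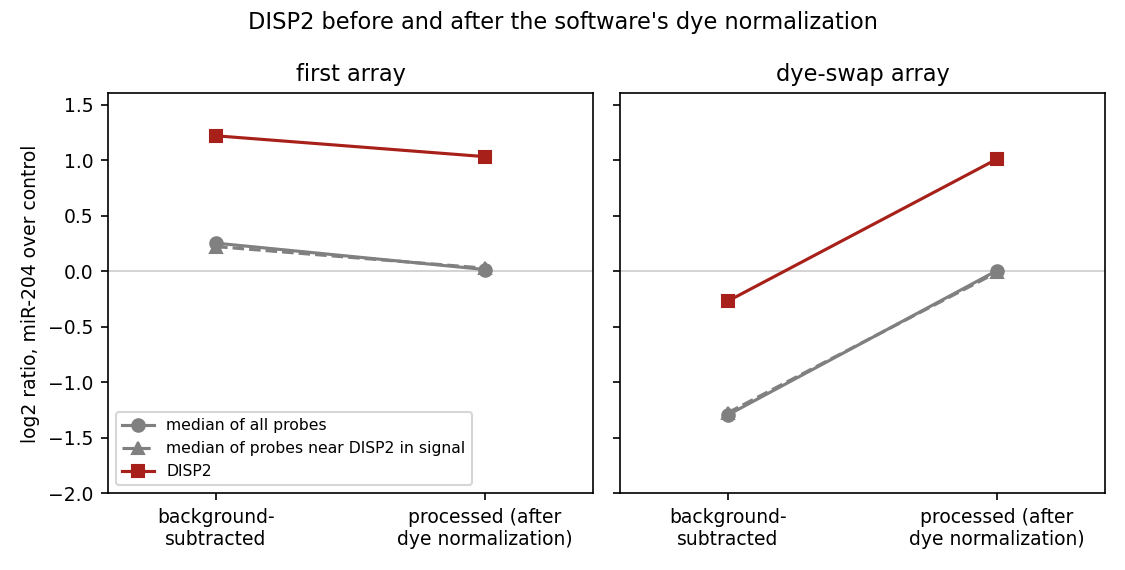
Log2 ratio of miR-204 over control on the first array (left) and the dye-swap array (right), before and after the software's dye normalization, for DISP2 (squares), for the median of all probes with the flag in all 4 channels (circles) and for the median of those near DISP2 in signal (triangles). DISP2 starts at 1.22 and -0.27 and ends at 1.03 and 1.01, and on both arrays it runs about 1 above the medians throughout. It was chosen by its processed ratio, so nothing is read from that distance.

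The size of the DISP2 ratio changed with the background correction and the normalization. With normexp background correction (offset 50) and loess within each array it was 0.75, or 1.69-fold, and with loess and no background correction 0.74, both short of 2-fold. Each of these settings changed the background step and the normalization together. It was 0.89 when the 2 columns of ratios, in place of the 4 channels, were quantile normalized, and 1.03 in the authors' series table.

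DISP1 encodes the Dispatched protein that exports lipid-bearing Hedgehog. Its only probe, A_23_P201319, on chromosome 1 from 221245734 to 221245793, read 414 (control) and 416 (miR-204) on the first array. After the swap it read 350.0 and 356. These are near-equal pairs, and the log2 ratios of the 2 arrays were 0.03 and 0.02, with a software error of 0.21 each. Of all counted probes, 89.8% had a mean ratio at least as large in size. DISP1 and DISP2 differed in the ratio by about 1 on the log2 scale on both arrays. DISP2 was chosen for a ratio of that size, so nothing is read from this gap.

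By the distance between the 2 ratios, the probes most like DISP2 were KIAA1683 (1.03 on the first array, 0.99 after the swap), AL833005 (0.98 and 0.97) and BC043411 (0.92 and 0.99). This likeness rests on 2 arrays of 1 replicate. The genes that the array lists nearest to DISP2 on chromosome 15 did not share its ratio. Of all counted probes, 0.123% were called higher, and DISP2 was chosen for its ratio, so nothing is read from this difference. C15orf23, 23.1 kb away, had a mean log2 ratio of -0.03 with opposite signs on the arrays. FLJ43339, on the other side, had means of -0.46 and -0.09 for its 2 probes, 38.8 and 39.5 kb away, the first of them again with opposite signs.

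PTCH1 encodes the receptor that binds Hedgehog and restrains Smoothened. Its only probe, A_24_P115490, on chromosome 9 from 97247269 to 97247328, read 12.3 (control) and 10.1 (miR-204) on the first array, against 5.11 and 6.26 after the swap. None of the 4 channels was well above background, so no fold is given. PTCH1 transcript could not be compared at this signal.

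HHIP encodes a membrane protein that binds Hedgehog ligands and keeps them from Patched. The probe A_23_P167129, on chromosome 4 from 145878379 to 145878438, read 33.3 ± 5.83 (control, with the software error) and 27.0 ± 4.53 (miR-204) on the first array. With the dyes swapped it read 31.2 ± 4.33 and 23.9 ± 7.17, where the last was not well above background. The probe was thus counted through the control RNA alone. The miR-204 signal was the lower on both arrays, but by less than the errors of the 2 signals together.

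The log2 ratios of this HHIP probe were -0.32 and, after the swap, -0.35, with software errors of 0.36 and 0.44. Its mean of -0.33, 1.26-fold lower, was the lowest among the counted probes of the 9 genes in this setting, and 10.2% of all counted probes lay at or below it. The mean was -0.11 with normexp and loess and -0.06 with loess and no background correction, where GLI1 was lower, at -0.18 and -0.14. The other HHIP probe, A_24_P401842, matches the transcript AK074711 on chromosome 4 from 145800615 to 145800674. It lay between 4.56 and 7.46 in the 4 channels, none of them well above background.

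SMO encodes Smoothened, the membrane protein that passes the signal on. Its probe A_23_P70818, on chromosome 7 from 128640473 to 128640532, read 4488 (control) and 4175 (miR-204) on the first array, against 3058 and 3153 after the swap. The order of the 2 RNAs was opposite on the 2 arrays, with log2 ratios of -0.08 and 0.04, each well inside the software error of 0.204. The mean was -0.02 with an SD over the arrays of 0.082.

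SUFU encodes the protein that holds GLI factors in check in the cytoplasm. The probe A_23_P425304, on chromosome 10 from 104383018 to 104383077, read 194 (control) and 185 (miR-204) on the first array, against 135 and 127 after the swap. Its log2 ratios of -0.08 and -0.10 had the same sign and were smaller than the software errors of 0.21 and 0.22. A second probe, A_24_P149893, from 104367064 to 104367123, read 70.2 (control) and 59.2 (miR-204) on the first array, against 36.3 and 52.6 after the swap. This probe had opposite signs, with log2 ratios of -0.24 and 0.54, so the 2 counted probes of SUFU disagreed by more than their errors on the dye-swap array. The third probe, A_24_P149902, lay between 13.0 and 27.0, was well above background in 2 of 4 channels and was not counted. Over the 2 counted probes the mean for SUFU was 0.03.

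GLI1 encodes an activator of Hedgehog target genes and is itself such a target. Its probe A_23_P105251, on chromosome 12 from 56152238 to 56152297, read 298 (control) and 247 (miR-204) on the first array, against 155 and 152 after the swap. The miR-204 signal was the lower on both, with log2 ratios of -0.27 and -0.03 (software errors 0.21 each) and a mean of -0.15. The size of the ratio thus came mostly from the first array.

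GLI2 encodes the factor that carries much of the activating response. Its probe A_23_P500034, on chromosome 2 from 121465057 to 121465116, read 264 (control) and 230 (miR-204) on the first array, against 191 and 204.1 after the swap. The log2 ratios of -0.20 and 0.10 had opposite signs. The probe A_23_P209246, about 1 kb further along from 121466146 to 121466205, read 365 (control) and 618 (miR-204) on the first array, against 304 and 278 after the swap. Its log2 ratio was 0.77 on the first array but -0.14 after the swap. That difference of 0.91 between the arrays was the largest among the 10 counted probes, and the neighbouring GLI2 probe did not share the high value on the first array.

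GLI3 encodes the factor that, once clipped, acts as the main repressor of target genes. Its probe A_23_P111531, on chromosome 7 from 41970236 to 41970295, read 1283 (control) and 1289 (miR-204) on the first array, against 875 and 897 after the swap. The log2 ratios were 0.00 and 0.03, with a mean of 0.02. Together with DISP1 and SMO it was among the probes whose 2 RNAs gave nearly the same signal on both arrays.

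**Figure D3:**
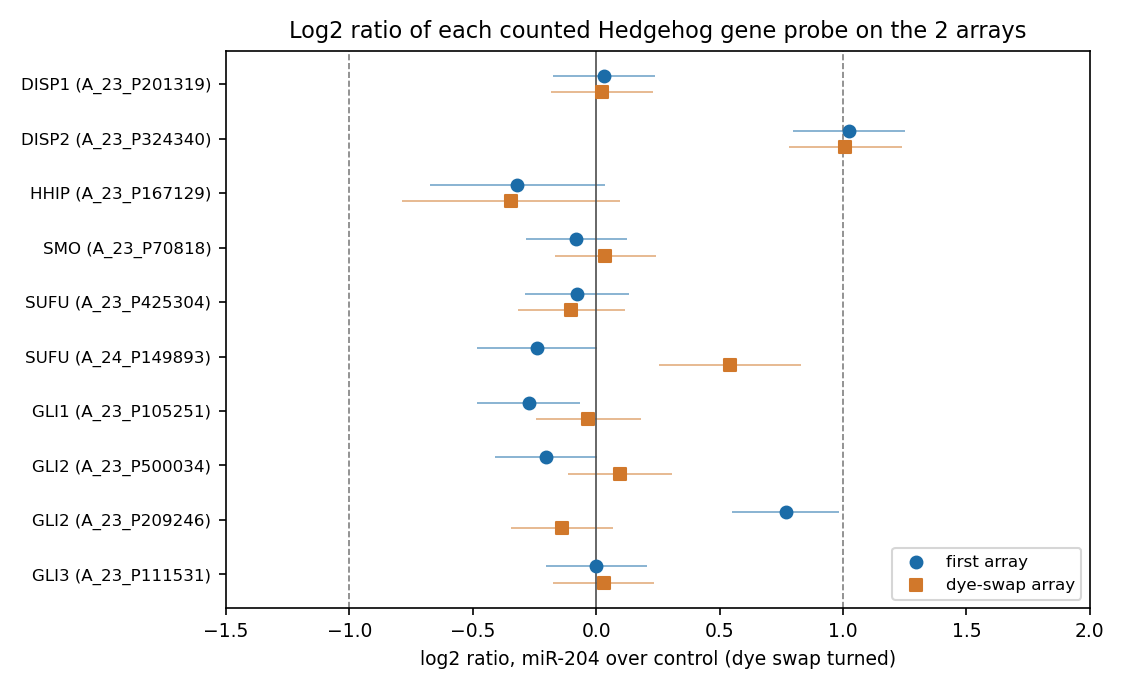
Log2 ratio of miR-204 over control (dye swap turned) for the 10 counted probes of the Hedgehog genes, on the first array (circles) and the dye-swap array (squares). Bars are the software's error of the log ratio within an array, and dashed lines mark 2-fold. DISP2 lies at 1.02 and 1.01, while the other 9 probes lie between -0.35 and 0.77 on the single arrays.

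Without DISP2, the 9 counted probes of the other 7 genes had mean log2 ratios between -0.33 (HHIP) and 0.31 (GLI2). The same sign on both arrays was seen for 4 of the 9, DISP1 higher and HHIP, 1 probe of SUFU and GLI1 lower. SMO, the other SUFU probe and both GLI2 probes, 4 in all, had opposite signs, and GLI3 was at 0 on the first array. Of all counted probes, 47.5% had the same sign on both arrays. With DISP2 included, 5 of the 10 means were above 0 and 5 below, the median mean was -0.003 against 0.001 over all counted probes, and the median size of the mean was 0.12 against 0.15. The means went both ways, and PTCH1 gave no value.

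**Figure D4:**
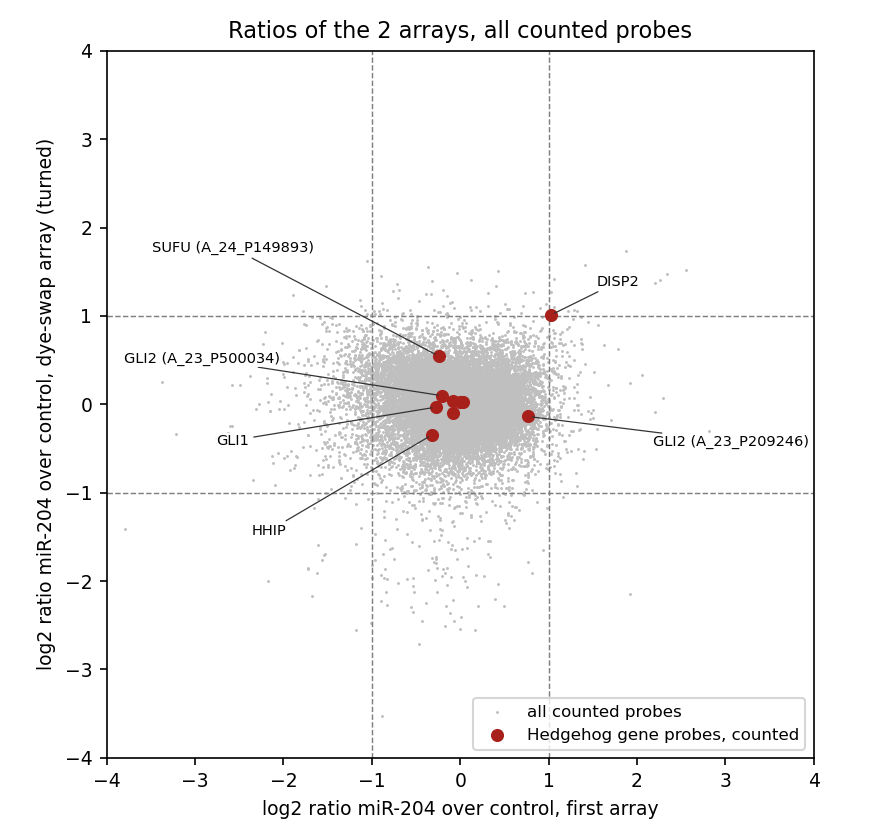
Log2 ratio of miR-204 over control on the first array (horizontal) against the dye-swap array, turned (vertical), for the 25270 counted probes (grey) and the 10 counted Hedgehog gene probes (red, 6 of them named). Dashed lines mark 2-fold on each array. DISP2 sits just beyond the corner at 1.02 and 1.01, while GLI2 (A_23_P209246) is high on the first array alone and SUFU (A_24_P149893) on the dye-swap array alone.

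A further list of 36 Hedgehog genes was read in the same way. Of these, 35 were found on the array, with 53 probes, and 44 probes of 29 genes were counted. None was called in either direction, where 0.123% of all counted probes were called higher and 0.518% lower. The means ran from -0.65 to 0.68, with a median of 0.05 and a median size of 0.13, against 0.15 over all counted probes. The same sign on both arrays was seen for 13 probes on the higher side and 7 on the lower side, and 24 had opposite signs.

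Among ligands, the only probe of SHH carried the flag in none of the channels, and DHH had log2 ratios of 0.25 and 0.09 on the first and the dye-swap array. HHAT, the enzyme that adds palmitate to Hedgehog, had ratios of -0.31 and -0.20. SCUBE3, of a family of secreted proteins that take up Hedgehog as Dispatched hands it over, had ratios of -0.14 and 1.01, opposite in sign on the 2 arrays. SCUBE1 and SCUBE2 were not counted. Of the 2 counted genes that act beside Dispatched in the making and release of the ligand, HHAT and SCUBE3, neither was past 2-fold on both arrays.

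Among receptors and co-receptors, LRP2 was not counted. The co-receptor CDON had ratios of -0.22 and -0.29 for its counted probe, and the 4 counted genes of this group had means between -0.25 and 0.11. The others of the 4, BOC, GAS1 and GPC3, had means of 0.11, 0.10 and 0.04. BOC (-0.45 and 0.67) and GAS1 (0.33 and -0.13) had opposite signs on the 2 arrays. The miR-204 signal of BOC on the dye-swap array was not well above background. At the cilium, 11 counted probes of 7 genes had means between -0.65 and 0.26. GPR161, a receptor that restrains the pathway through cyclic AMP, had 4 probes with means from -0.51 to -0.10. Its lowest, A_23_P103532, had ratios of -1.32 on the first array but 0.31 after the swap. The probes A_32_P497742 (0.24 and -0.44) and A_23_P303455 (-0.96 and 0.005) also had opposite signs. The transcripts that the array names for A_23_P103532 and A_32_P497742 were not among the RefSeq transcripts listed for GPR161. EVC, a partner of Smoothened in the cilium, was singled out after its values were seen, as the only gene of the list at least 1.5-fold lower. Its probe A_24_P60441 had ratios of -0.64 and -0.65, with the miR-204 signal of the dye-swap array not well above background, while its other probe had 0.20 and -0.08. Over all counted probes, 2.62% were at least 1.5-fold lower by the same rule.

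The 18 counted probes of the 9 genes for GLI phosphorylation and turnover had means from -0.30 to 0.51. The ends of that range were SPOP, an adaptor that brings GLI proteins to a ubiquitin ligase (-0.53 and -0.08 for the probe A_23_P107257), and CUL3, the scaffold of that ligase (0.71 and 0.31 for A_24_P140030). The second probe of each gene lay nearer to 0, with a mean of -0.13 for SPOP and 0.11 for CUL3.

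The 6 genes known as GLI targets in other tissues were all counted, with 8 probes and means from -0.26 to 0.68. NKX2-2, a target in the ventral neural tube, read 31.5 (control) and 57.7 (miR-204) on the first array, against 27.5 and 38.1 after the swap. Its ratios were 0.86 and 0.49, the highest mean of the list at 0.68 and the only probe of the list at least 1.5-fold higher, where 1.27% of all counted probes were. FOXL1 had ratios of -0.57 and 0.06. The means of these 6 genes went both ways. Of the targets that are themselves parts of the pathway, PTCH1 was not well above background. GLI1 (-0.27 and -0.03) and HHIP (-0.32 and -0.35) had ratios below 0 without being called. The HHIP ratios were smaller than their software errors of 0.36 and 0.44, and that probe was counted through the control RNA alone. The GLI1 ratio of the dye-swap array was smaller than its error of 0.21. No change in the readout of the pathway is read from these values.

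**Figure D5:**
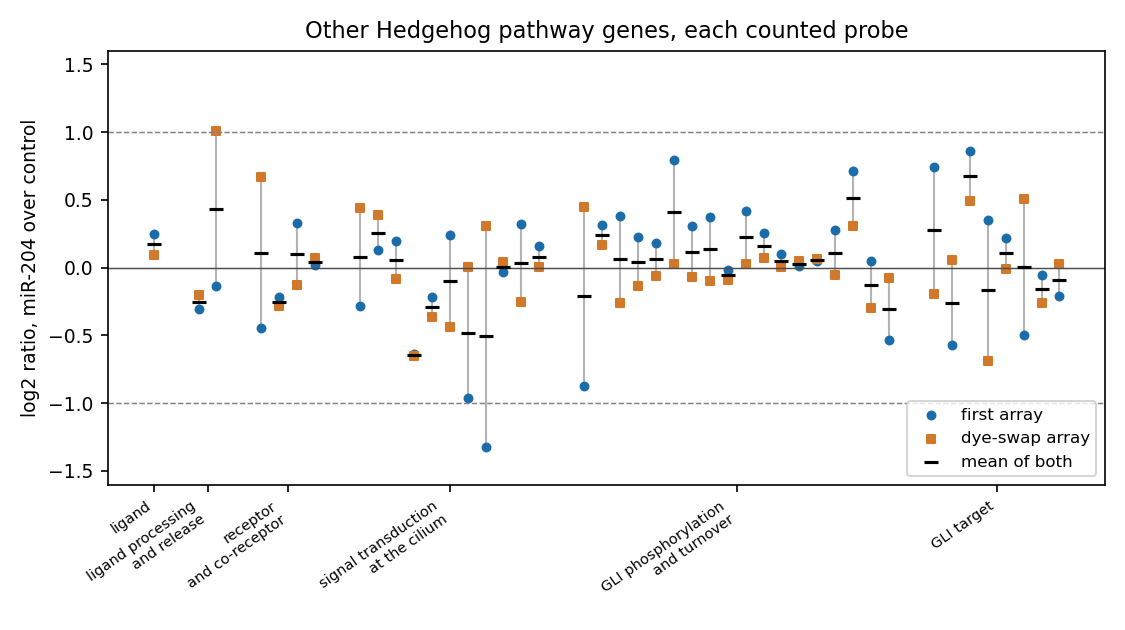
Log2 ratio of miR-204 over control for the 44 counted probes of the further Hedgehog list, grouped by role along the horizontal axis, on the first array (circles) and the dye-swap array (squares), with the mean of both as a dash and dashed lines at 2-fold. No mean reaches 2-fold, and the long vertical lines show probes such as GPR161 (-1.32 and 0.31) whose 2 arrays differ in sign.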

How the data were processed

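Expression in HEK-293 cells was measured on 2 arrays that form 1 dye swap. The authors' deposited processed, background-subtracted and spot signals are intensity values from Feature Extraction 9.5.3.1. The authors' deposited log ratio is log10 of Cy5 over Cy3, and its error was converted from log10 to the log2 scale. The deposited series table holds log2 ratios, quantile normalized by the authors. Set against the scanner values, both its columns read miR-204 over control.

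Control spots were dropped, as were 128 probes that had an outlier flag, and the spots of a probe averaged. Log2 processed signals were quantile normalized over 4 channels with limma 3.58.1 in R 4.3.3. Ratios were turned to miR-204 over control. With 1 replicate no test was used for the main calls. The methods' t-test and limma's test were alternatives over arrays that do not compare conditions. The steps were tested on simulated data with changes larger than 2-fold and no dye shift. That test says nothing of a ratio close to the threshold, such as that of DISP2.

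The genes, lists and alternatives were chosen with earlier results of these data known. Named were the 9 genes, in each direction the 3 pathway genes furthest from 0 with the flag in all 4 channels, the 3 probes most like DISP2 and its neighbours on the chromosome. Some other genes of the further list, such as DHH, CDON and EVC, were also given and were not picked by that rule. The number of arrays limits the precision. Probe and protein sequences were not used here, and not every listed gene is reported.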

Additional observations from a re-analysis of the deposited data

How the results depend on the processing

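The DISP2 mean log2 ratio was 0.75 with normexp and loess, 0.75 with Aquantile added, 0.74 with loess and no background correction and 0.89 with quantile normalization of the ratios, and the number of the 9 genes' probes called higher was then 0 in place of 1. It was 1.004 with each array's median set to 0, where the dye-swap array alone gave 0.988, short of 2-fold. It was 1.03 in the series table, and 1.01 to 1.02 when either array was left out. The count was also 0 after Benjamini-Hochberg adjustment of the methods' t-test and of limma's test, which run over arrays of 1 replicate and called 0 of all probes. No probe of the 9 genes was called lower under any alternative. In the further list, the count called higher went from 0 to 1 with no filter on signal (LRP2), without the first array (SCUBE3) and at 1.5-fold (NKX2-2), and the count called lower from 0 to 1 without the dye-swap array (GPR161) and at 1.5-fold (EVC). The cause was not tested.

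HHIP kept its sign under 11 alternatives, from -0.36 to -0.06, and GLI1 under 12, from -0.27 to -0.03. The small means of DISP1, SMO, SUFU, GLI2 and GLI3 changed sign under 1 to 4 of 12. Loess, run with normexp or with no background correction, called 2 probes higher and 7 lower over the whole array, in place of 31 and 131, and dropping the signal filter gave 252 and 400. No setting changed the background step alone. The ratios pair the 2 RNAs within each array. Pairs of cultures could not be analysed, because both arrays hold the same comparison, taken as 1 replicate. Signal over background limits PTCH1, HHIP and 1 probe of SUFU.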
